A study of Mus musculus with 7 samples.

Results

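RNA polymerase II (Pol II) and the general transcription factors that load it onto promoters were examined in hippocampal neurospheres of Med23 CKO and control mice. The members were the rows of the deposited expression table whose gene symbol is Polr2a to Polr2m, starts with Gtf2a, Gtf2b, Gtf2e, Gtf2f or Gtf2h, is Taf followed by a number only, or is Tbp, which gave 40 of 24346 genes. Primary neural stem cells (NSCs) were prepared from the hippocampus of C57/BL6 mice aged 2 months and grown as neurospheres in FGF and EGF, with 1 library per mouse. The 3 Med23 CKO mice, numbered KO_117, KO_214 and KO_218, carried Nestin-CreER, a tamoxifen-dependent Cre driven in NSCs and their progeny by the Nestin promoter, and Med23 flox/flox alleles with LoxP sites around exons 5 to 7. The 4 controls, labelled wild type and numbered WT_215, WT_116, WT_213 and WT_220, were littermates, which the methods describe as Med23 flox/+ or Med23 flox/flox without Cre, not naming the genotype of each mouse. Tamoxifen was given to both groups (200 mg/kg, 5 daily doses), so the groups differ in CreER as well as in Med23. The paper reports the deletion of Med23 from a western blot of hippocampal tissue and from qRT-PCR of its transcript in primary neurospheres. Which cells of the cultures had lost Med23 was not measured. The deposited table holds more control libraries than the group size in the paper, whose text does not name the controls used, so a control given here may lie outside that comparison. Values of single mice are given with the mice in the order above.

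Pol II makes the messenger RNA of protein-coding genes. At a promoter, TFIID, which contains the TATA-binding protein TBP and its associated factors (TAFs), binds first, TFIIA and TFIIB hold it in place, TFIIF arrives with Pol II, and TFIIE brings TFIIH, which opens the DNA and phosphorylates the tail of the largest Pol II subunit. Mediator, of which Med23 is a subunit, connects DNA-bound activators with this assembly, and Med23 is known as a partner of the ETS factor Elk1. Most of these genes are used by every cell.

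Levels are FPKM, fragments scaled to transcript length and to all mapped fragments, which can be compared between genes because they are set per length. Differences are those between group means of log2(FPKM + 1), tested with limma over the 14151 genes whose mean FPKM over the 7 libraries was at least 0.5. Of the 40 members, 39 passed this limit. The exception was Gtf2a1l, a form of TFIIA known from germ cells, which was listed at 0 in 5 libraries, at 0.206 FPKM in WT_213 and at 0.0771 FPKM in KO_214. Without read counts the sequencing depth is not known, and the number of mice limits the precision. Between 16841 and 18113 genes had a value above 0 in a library, and correlations of log2(FPKM + 1) between libraries ranged from 0.788 to 0.979.

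Med23 itself had 11.4, 10.3, 12.9 and 10.1 FPKM in the controls, against 9.97, 9.27 and 8.12 FPKM in CKO mice. All CKO mice lay below all controls, with a mean difference of -0.26 on the log2 scale (95% confidence interval -0.68 to 0.15, two-sided exact permutation p = 0.0571). The FPKM value covers the whole gene, so transcripts that lack the deleted exons are counted in it. The labelled cell type was checked against 10 NSC markers, all of which were above 0 in every library, with a summed level of 1887 to 3853 FPKM in the controls, against 2066 to 3851 FPKM in CKO mice. Of these markers, 8 had a log2 fold change below 0 and 2 above 0, and 0 were called at an unadjusted p under 0.05 (limma). The sum mainly follows Vim and Fabp7, with the highest control means (1407 and 1135 FPKM). Fabp7 had 463 to 1557 FPKM in the controls, against 1501, 203 and 1054 FPKM in CKO mice. Other cells were present too. The summed level of 14 microglia and macrophage markers lay between 46.8 and 292 FPKM in the controls and was 46.1, 1312 and 211 FPKM in CKO mice. That of 10 endothelial markers was 15.04 to 87.9 FPKM in the controls, against 15.4 to 149 FPKM in CKO mice, and that of 7 mural cell and fibroblast markers was 8.39 to 81.4 and 6.17 to 305 FPKM. In each of these 3 lists the highest sum was in KO_214, and all tested markers (13, 10 and 7) had a log2 fold change above 0, of which 0 were called at an unadjusted p under 0.05. None of the markers was at 0 in any library. Oligodendrocyte lineage markers summed to 2676 to 4850 FPKM in the controls, against 2241 to 2922 FPKM in CKO mice, and neuron markers to 110.5 to 148 and 69.0 to 188 FPKM. In such mixed samples, fewer cells of a type and less RNA per cell cannot be told apart. The part of these cells in the differences given next was not tested.

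No gene of Pol II or the general factors passed limma's threshold, and most estimates lay close to 0. At an adjusted p under 0.05, 0 members and 0 of the 14151 genes (0%) were called, and the lowest adjusted p of a member was 0.9999. At an unadjusted p under 0.05, 0 members were higher and 0 lower in Med23 CKO, against 0.502% of all genes higher and 0.996% lower. The number of members whose groups did not overlap was 0 in either direction, and over all genes 0.784% lay wholly above and 1.53% wholly below control. With shares this small, 0 of 39 members is near the share over all genes, so these counts do not set the members apart. The log2 fold changes ranged from -0.61 for Polr2f to 0.26 for Polr2k, and 36 of 39 were smaller than 0.2 in size. Their median was -0.05, beside -0.03 over all genes tested. Of the members, 28 were on the lower side of 0 and 11 on the higher side (71.8% lower), compared with 56.2% lower over all genes. With quantile normalization 25 members and 53.2% of all genes were lower. With each library centred on its median, 24 members and 51.1% of all genes were lower. Without KO_214, 23 members and 60.4% of all genes were lower. Over all genes, the unadjusted calls (71 higher, 141 lower) became 102 and 123 with quantile normalization and 99 and 119 with median centring.

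These p-values do not show that the groups were alike. The 95% confidence interval of a member reached 0.48 (median) on the log2 scale to either side of the estimate, least for Taf11 (0.34) and most for Taf13. For 37 of 39 members the interval lay between -1 and 1, so that a change of 2-fold in either direction was outside it, on the log2(FPKM + 1) scale. The exceptions were Polr2f (-1.29 to 0.06) and Taf13 (-1.54 to 1.47).

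**Figure D1:**
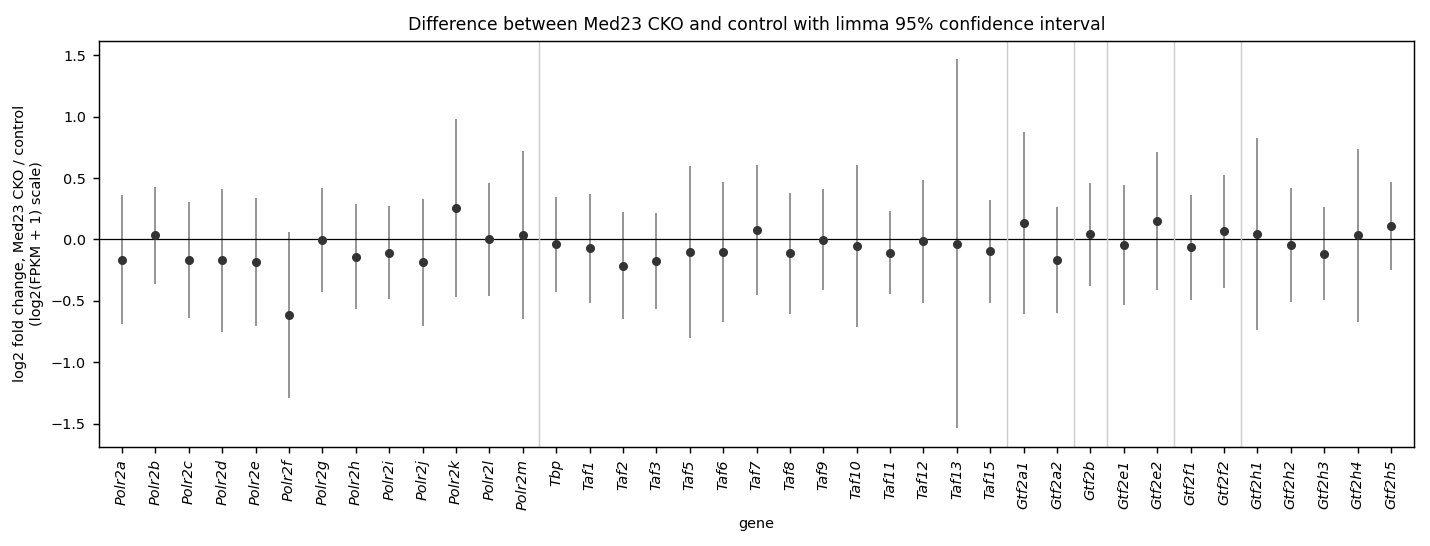
Log2 fold change of each of 39 members (points, vertical axis, log2(FPKM + 1) scale) between 3 Med23 CKO and 4 control libraries, with limma's 95% confidence interval (lines), grouped by complex (grey dividers). Every interval includes 0; that of Polr2f, at -0.61, reaches least above it, and that of Taf13 is the widest.

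The promoters of 4 members are shown, those of the largest Pol II subunit (Polr2a), the member with the largest difference (Polr2f), the protein that binds TATA boxes (Tbp) and the member that varied most between mice (Taf13). They are the 120 bases before the transcription start in RefSeq on GRCm38.p6, 5′ to 3′ on the gene's strand. Capitals mark TATAAA (the element bound by TBP), GGAAGT (the core bound by ETS factors) and GGGCGG (the element bound by Sp factors) on either strand; no marked stretches overlap one another.

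Polr2a, chr11:69758634-69758753, reverse strand: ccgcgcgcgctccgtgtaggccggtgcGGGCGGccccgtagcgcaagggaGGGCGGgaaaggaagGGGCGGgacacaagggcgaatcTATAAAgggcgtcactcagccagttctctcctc

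Polr2f, chr15:79141205-79141324, forward strand: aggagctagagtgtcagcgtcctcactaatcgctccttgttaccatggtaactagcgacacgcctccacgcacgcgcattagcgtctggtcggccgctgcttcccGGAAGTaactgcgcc

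Tbp, chr17:15499768-15499887, forward strand: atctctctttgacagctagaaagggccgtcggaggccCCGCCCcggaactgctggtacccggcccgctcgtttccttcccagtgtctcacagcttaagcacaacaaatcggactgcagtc

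Taf13, chr3:108571579-108571698, forward strand: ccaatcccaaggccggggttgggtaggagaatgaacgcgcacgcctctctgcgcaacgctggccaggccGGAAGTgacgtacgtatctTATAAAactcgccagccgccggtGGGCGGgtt

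The TATA box of Polr2a begins 33 bases before the start and that of Taf13 32 bases before it, whereas TATAAA is not in the windows of Polr2f and Tbp shown here. The letters GGAAGT begin 15 bases before the start of Polr2f and 51 bases before that of Taf13. The Polr2f window lies inside the GENCODE coordinates of the gene (chr15:79141009-79151774), whose start is further upstream. What is said of Polr2f here therefore holds for the RefSeq start only. RefSeq promoter windows of 300 bases (250 before and 50 after the start) were found for 34 of the 40 members, 41 windows in all. TATAAA was in 19.5% of these windows and in 13.6% of all 32851 promoter windows, GGAAGT in 46.3% and 23.8%, and GGGCGG in 68.3% and 35.7%. These are matches of letters, with no test and no measurement of binding. The full set of windows, from 27025 genes, was not limited to genes expressed here. The higher shares are therefore not shown to be particular to the members.

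Pol II subunits were the most abundant group, with control means between 35.1 FPKM (Polr2l) and 274 FPKM (Polr2f) and a median of 52.4 FPKM. Of the 13 genes, 10 were on the lower side of 0 (median log2 fold change -0.14), and 8 with quantile normalization, with median centring or without KO_214. Polr2a, the catalytic subunit whose tail is phosphorylated by TFIIH, is encoded at chr11:69733997-69758637 (GRCm38, reverse strand). It had 49.6, 40.7, 38.7 and 44.4 FPKM in the controls, against 53.2, 36.1 and 29.4 FPKM in CKO mice. The highest and the lowest of the 7 values were both in Med23 CKO mice, and the groups overlapped (log2 fold change -0.17, standard error 0.22). Without KO_218 the difference of Polr2a was 0.02, and without KO_117 it was -0.40. Polr2b, which forms the catalytic cleft with Polr2a, had 33.9 to 41.8 FPKM in the controls, against 32.8 to 44.5 FPKM in CKO mice. An exon of Polr2b overlaps one of Igfbp7 on the other strand. Igfbp7 had 449 FPKM in KO_214 and 16.9 to 123 FPKM elsewhere, whereas Polr2b was at its lowest, 32.8 FPKM, in KO_214. For the stalk subunits Polr2d and Polr2g, the log2 fold changes were -0.17 and -0.00 (standard errors 0.25 and 0.18). KO_214 held the lowest value of Polr2d, 41.1 FPKM, and without it the difference of Polr2d was 0.06. The assembly pair Polr2c and Polr2j had -0.17 and -0.19 (standard errors 0.20 and 0.22), and Polr2i, known for its role in transcript fidelity, -0.11 (standard error 0.16).

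Polr2f, a small subunit shared by all 3 nuclear RNA polymerases, was the member with the largest difference. Its gene is at chr15:79141009-79151774 (GRCm38, forward strand). There were 347, 170.2, 214.3 and 364 FPKM in the controls, against 178, 168 and 165 FPKM in CKO mice. The 3 CKO values lay close together, with a standard deviation of 6.77 FPKM beside 96.2 FPKM in the controls, and 3 of the 4 controls were above them, but the control WT_116 was at the Med23 CKO level, between KO_117 and KO_214. The log2 fold change was -0.61 (standard error 0.29, unadjusted p = 0.0693, adjusted p = 0.9999 from limma, exact permutation p = 0.143). It was -0.82 without WT_116, where limma's unadjusted p was 0.0146 and the adjusted p stayed above 0.05, and between -0.71 and -0.45 with each other library left out in turn. The paper, by contrast, lists POLR2F among its downregulated genes, from Cuffdiff with 3 mice in each group. Both the test and the number of controls differ from those used here. Divided by the median of the other 12 Pol II genes of the same library, the level of Polr2f was 7.21, 3.45, 3.85 and 8.09 in the controls, against 3.505, 4.15 and 3.44 in CKO mice. On this ratio WT_116 and WT_213 both lay within the range of the CKO mice, and WT_215 and WT_220 above it. Exon sequence of Polr2f overlaps 1700088E04Rik on the other strand, which had 4.50 to 11.1 FPKM, with its lowest value in KO_117.

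The other 4 subunits shared with Pol I and Pol III differed less. Polr2k had 46.7, 61.8, 62.2 and 38.8 FPKM in the controls, against 38.9, 67.0 and 89.6 FPKM in CKO mice. Its log2 fold change of 0.26 (standard error 0.31) was the largest on the higher side, and it was -0.01 without KO_218, which held the highest value. Polr2e had 81.0, 70.1, 68.4 and 97.0 FPKM in the controls, against 84.9, 74.5 and 51.3 FPKM in CKO mice (log2 fold change -0.19, standard error 0.22). Polr2h was nearly constant in control at 37.5 to 38.2 FPKM, whereas in Med23 CKO it was 39.8, 26.2 and 38.5 FPKM, so that only KO_214 fell below the controls (log2 fold change -0.14, and 0.05 without KO_214). Polr2l had 31.8, 43.8, 36.9 and 27.8 FPKM in the controls, against 31.3, 39.6 and 33.4 FPKM in CKO mice, which left a difference of -0.00 (standard error 0.20). Polr2m, which encodes a protein known to make Pol II dependent on Mediator, had 85.8, 60.0, 70.6 and 103 FPKM in the controls, against 122, 61.0 and 68.7 FPKM in CKO mice. The highest value was in KO_117, and the log2 fold change was 0.03 (standard error 0.29).

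**Figure D2:**
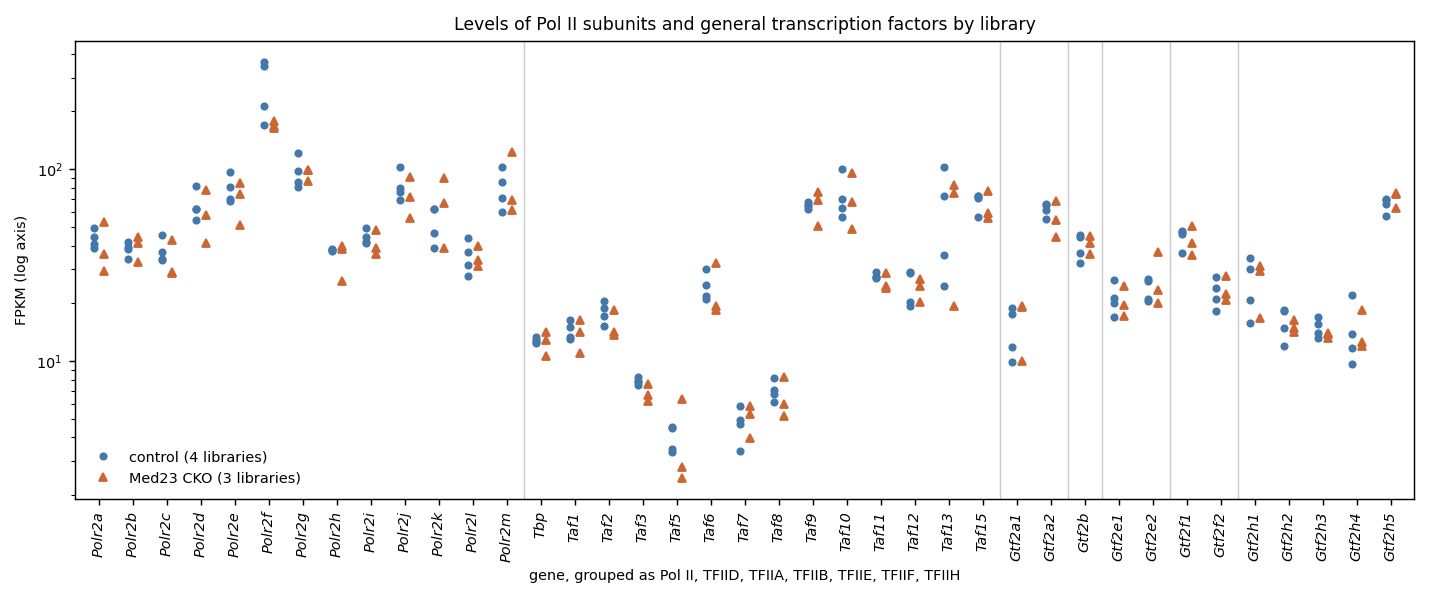
FPKM (vertical log axis) of 39 members in each of 4 control (circles) and 3 Med23 CKO (triangles) libraries, grouped by complex with grey dividers. Polr2f stands above the other subunits, with 3 of its 4 control values above all Med23 CKO values, and Taf13 covers the widest range, from 19.3 to 102 FPKM.

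The 14 members of TFIID covered control means from 3.97 FPKM (Taf5) to 72.3 FPKM (Taf10), and 13 of 14 were on the lower side of 0 with a median log2 fold change of -0.09. With quantile normalization 12 of 14 were lower, with median centring 11, and without KO_214 8 (median -0.03). Tbp (chr17:15499888-15528379, GRCm38, forward strand) had 13.4, 12.5, 12.7 and 12.9 FPKM in the controls, against 14.2, 10.7 and 12.9 FPKM in CKO mice. The controls spanned 12.5 to 13.4 FPKM, and the highest and lowest value of Tbp were both in Med23 CKO mice (log2 fold change -0.04, 95% confidence interval -0.43 to 0.35). Exon sequence of Tbp overlaps Pdcd2 on the other strand, which had 11.4 to 15.8 FPKM. Taf1, the largest TAF and a scaffold of the complex, had 13.1 to 16.4 FPKM in the controls, against 11.1 to 16.3 FPKM in CKO mice. Taf2, which contacts the initiator at the start site, had 20.6, 15.2, 19.0 and 17.2 FPKM in the controls, against 18.4, 13.6 and 14.2 FPKM in CKO mice. Its difference of -0.22 on the log2 scale (standard error 0.19, exact permutation p = 0.171) was the largest among the TAFs that the naming rule takes in, with KO_214 and KO_218 below all controls and KO_117 among them. Taf3, which reads a histone mark of active promoters, had 7.84, 8.24, 7.77 and 7.48 FPKM in the controls, against 6.65, 7.62 and 6.21 FPKM in CKO mice (difference -0.18 on the log2 scale, exact permutation p = 0.0571). KO_214 lay within the controls, and without it the log2 fold change was -0.25.

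Taf5, a core TAF, had 4.50, 3.35, 3.48 and 4.53 FPKM in the controls, against 6.37, 2.47 and 2.82 FPKM in CKO mice, so that the 3 Med23 CKO values lay on both sides of the controls (log2 fold change -0.10, standard error 0.30). Exon sequence of Taf5 overlaps the far more abundant Usmg5 on the other strand, which had 481 to 891 FPKM. Reads of Usmg5 could therefore be counted for Taf5, which was not tested. Taf7, an inhibitor of Taf1 activity, was the one member of the group on the higher side, with 4.72, 5.81, 4.96 and 3.41 FPKM in the controls, against 5.32, 3.95 and 5.80 FPKM in CKO mice (log2 fold change 0.08, standard error 0.23). Taf10, also part of the SAGA coactivator, had 70.1, 56.4, 63.0 and 99.8 FPKM in the controls, against 95.2, 67.5 and 49.0 FPKM in CKO mice (log2 fold change -0.05, standard error 0.28). For Taf6, Taf8, Taf9, Taf11, Taf12 and Taf15 the log2 fold changes lay between -0.11 and -0.00. Taf9 shares exon sequence with Ak6 on the same strand, so its reads could be split between both genes.

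Taf13, the histone-fold partner of Taf11, is named here because of its spread, after its values were seen. It had 35.8, 102, 72.6 and 24.7 FPKM in the controls, against 19.3, 75.0 and 82.7 FPKM in CKO mice, a 5.29-fold range with low and high mice in both groups, and the log2 fold change was -0.03 (standard error 0.64). Its partner Taf11 had 27.2, 27.5, 29.1 and 27.4 FPKM in the controls, against 28.7, 24.7 and 24.1 FPKM in CKO mice, a 1.21-fold range. The 3 lowest values of Taf13 were in WT_215, WT_220 and KO_117. In the same libraries the summed level of 18 proliferation genes was 1617, 1716 and 2170 FPKM, while it was 550.4 FPKM in WT_116, 848 FPKM in WT_213, 327 FPKM in KO_214 and 915 FPKM in KO_218. All 18 of these genes had a log2 fold change below 0 between the groups, from -0.85 (Cdc20) to -0.00 (Pcna), and 0 were called at an unadjusted p under 0.05. The highest and the lowest sum were both in CKO mice, KO_117 and KO_214, so these signs do not show lower proliferation in Med23 CKO. The paper reports a higher percentage of cells labelled with BrdU, its measure of dividing cells, in primary neurospheres of CKO mice. Polr2g, Polr2k, Polr2l, Taf12, Gtf2a1, Gtf2b, Gtf2f2 and Gtf2h1 also had their 3 lowest values in WT_215, WT_220 and KO_117, and Polr2a, Polr2d, Polr2e, Polr2m, Tbp, Taf5, Taf6, Taf10, Taf15 and Gtf2h4 had their 3 highest values there. The part of proliferation in these levels was not tested. How many of all genes split the libraries in this way was not counted. The split is therefore not shown to be particular to the members.

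**Figure D3:**
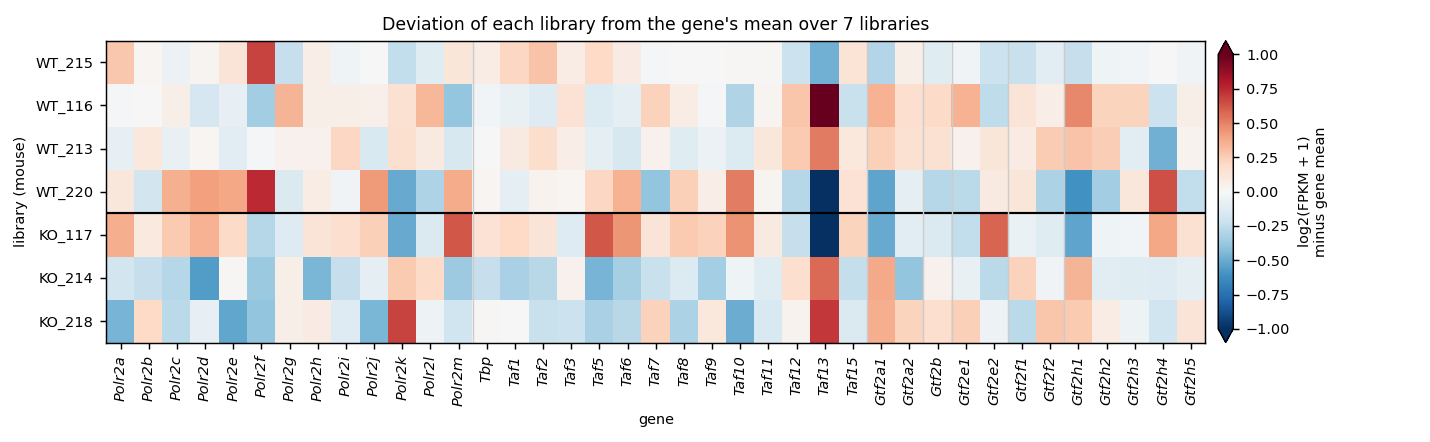
Deviation of log2(FPKM + 1) in each library (rows, control above the black line and Med23 CKO below) from the mean of the gene over 7 libraries, for 39 members (columns, grouped by complex); red is above and blue below the mean, and the colour scale ends at -1 and 1. Taf13 shows both signs in each group, and Polr2f is above its mean in WT_215 and WT_220.

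The remaining factors had 12 tested members with log2 fold changes between -0.17 and 0.15. In TFIIA, which stabilizes TBP on DNA, Gtf2a1 had 11.8, 19.0, 17.5 and 9.92 FPKM in the controls, against 10.0, 19.4 and 19.2 FPKM in CKO mice (log2 fold change 0.14, standard error 0.32). The small subunit Gtf2a2 had 61.0, 65.7, 65.2 and 54.9 FPKM in the controls, against 54.3, 44.3 and 68.3 FPKM in CKO mice (log2 fold change -0.17, standard error 0.19, and -0.01 without KO_214, its lowest value). TFIIB is a single protein that places Pol II at the start site, and its gene Gtf2b had 36.5, 45.6, 44.3 and 32.5 FPKM in the controls, against 36.0, 41.1 and 44.8 FPKM in CKO mice, within a 1.40-fold range over the 7 mice (log2 fold change 0.04, standard error 0.18). Of the TFIIE subunits, Gtf2e1 had 20.1, 26.5, 21.3 and 17.0 FPKM in the controls, against 17.2, 19.6 and 24.6 FPKM in CKO mice (log2 fold change -0.05, standard error 0.21). Gtf2e2 had 21.0, 20.4, 26.8 and 26.2 FPKM in the controls, against 37.2, 20.1 and 23.6 FPKM in CKO mice, with KO_117 above every other mouse (log2 fold change 0.15, standard error 0.24, and -0.10 without KO_117).

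TFIIF travels with Pol II and limits its binding elsewhere. Gtf2f1 had 36.8, 47.4, 45.7 and 47.0 FPKM in the controls, against 41.1, 50.7 and 35.6 FPKM in CKO mice, and Gtf2f2 had 21.0, 24.0, 27.4 and 18.2 FPKM and 20.9, 22.2 and 27.9 FPKM. Both pairs of groups overlapped, with log2 fold changes of -0.06 and 0.07 (standard errors 0.18 and 0.20). In the core of TFIIH, which also acts in DNA repair, Gtf2h5 was the most abundant member, with 65.8, 70.1, 69.2 and 56.8 FPKM in the controls, against 75.0, 63.0 and 74.0 FPKM in CKO mice (log2 fold change 0.11, standard error 0.15). The other core subunits had control means between 14.3 and 25.3 FPKM. Gtf2h3 had 14.0, 17.0, 13.3 and 15.6 FPKM in the controls, against 14.0, 13.1 and 13.8 FPKM in CKO mice (log2 fold change -0.12, standard error 0.16). Gtf2h4 had 13.8, 11.8, 9.63 and 22.2 FPKM in the controls, against 18.5, 12.6 and 11.96 FPKM in CKO mice, with the highest values in WT_220 and KO_117 (log2 fold change 0.04, standard error 0.30). For Gtf2h1 and Gtf2h2, the log2 fold changes were 0.04 and -0.05 (standard errors 0.33 and 0.20).

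The spread between mice of 1 group was small for most members. The within-group standard deviation of log2(FPKM + 1) had a median of 0.24 over the 39 members, beside 0.38 over all 14151 genes, and 9 members were above the latter value. The members were also more abundant, with a median control mean of 37.5 FPKM against 10.97 FPKM, and the part of abundance in their spread was not tested. Taf11 (0.0902), Taf3 (0.0922), Gtf2h3 (0.119) and Tbp (0.125) varied least, and Taf13 (1.01), Gtf2h1 (0.489), Gtf2a1 (0.456) and Polr2k (0.455) most. In 31 members the highest of the 7 values was less than 2-fold above the lowest. The lowest value was in KO_214 for 15 members, in WT_220 for 11 and in KO_218 for 9, and the highest was in KO_117 for 11 and in WT_116 for 10.

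**Figure D4:**
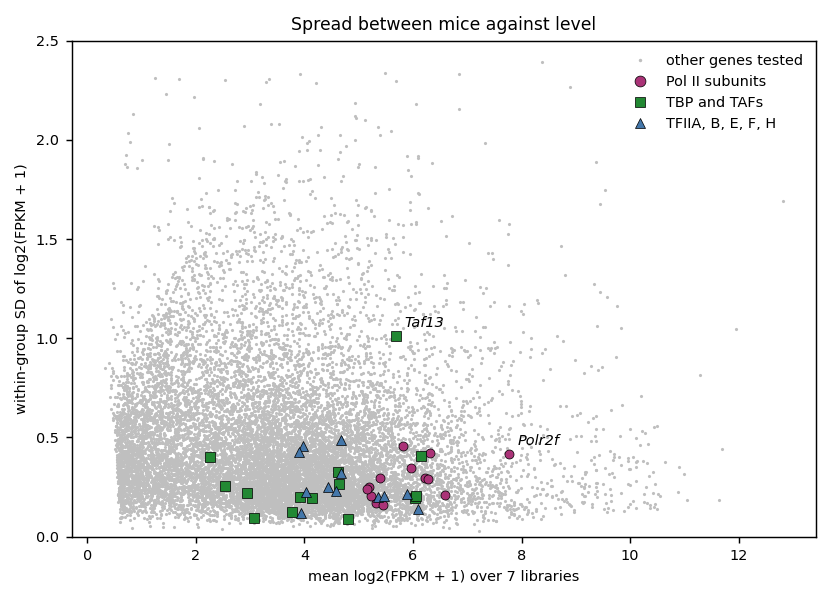
Within-group standard deviation of log2(FPKM + 1) (vertical axis) against mean log2(FPKM + 1) over 7 libraries (horizontal axis) for 14151 genes (grey) and 39 members (coloured by complex); 18 genes lie above the plotted range. Most members sit low in the cloud, with a median of 0.24, and Taf13 stands apart at 1.01.

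Genes that work with these factors but fall outside the naming rule were read from lists. Of the 5 other TFIIH subunits (Ercc2, Ercc3, Cdk7, Ccnh and Mnat1, the helicases and the kinase module), 5 were tested, 0 were called at an unadjusted p under 0.05 and the median log2 fold change was -0.02. Of 13 relatives of TBP and the TAFs, which include Taf4a, 11 were tested, 0 were called and the median was 0.00. Of 20 pausing and elongation factors, 19 were tested, 0 were called and the median was -0.02. Of 19 subunits found in Pol I or Pol III but not in Pol II, 19 were tested, 0 were called and the median was -0.15, with 15 lower and 4 higher. Of 13 Pol II assembly factors and tail phosphatases, 13 were tested, 0 were called and the median was -0.04. In each of the other lists of this paragraph, 0 genes lay wholly above or wholly below control. Among the 13 assembly factors and tail phosphatases, the groups did not overlap for 2 genes (15.4%), both lower in Med23 CKO. Over all genes, 1.53% lay wholly below control, and this list is singled out only after the values were seen. The 2 genes, Gpn3 and Rpap3, are named after their values were seen and act in the import or assembly of Pol II. Gpn3 had 20.7, 23.3, 21.1 and 24.9 FPKM in the controls, against 19.7, 18.4 and 18.7 FPKM in CKO mice, and Rpap3 had 14.0, 17.7, 15.3 and 16.4 FPKM and 14.0, 13.2 and 13.2 FPKM. Their log2 fold changes were -0.24 and -0.22 (standard errors 0.15 and 0.16), with unadjusted p of 0.159 and 0.216 from limma. For Rpap3, KO_117 lay below the lowest control, WT_215, by less than the rounding shown.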

How the data were processed

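The authors extracted total RNA from the neurospheres of single mice, prepared libraries with a NEBNext Ultra kit and sequenced them on the Illumina HiSeq platform. Per the methods and the labels, adapters were removed with cutadapt, reads were mapped by TopHat (default settings) to mm10, and the authors deposited FPKM per gene symbol from Cuffdiff, 1 column per library. TopHat and Cuffdiff versions and the annotation are not given in the sources used here. Group means, fold changes, test scores, p-values and q-values of the authors' own comparison stand in the same table and were not used. No column of another sample was used (0 were found). The kit does not mark strand, so reads of overlapping genes on opposite strands cannot be told apart. Exons of 13 members overlap another gene in GENCODE M21 (GRCm38, which is mm10), the source of the gene coordinates. Ratios of low FPKM values between libraries showed no steps of whole fragments.

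The scale was log2(FPKM + 1), with 1 as the pseudocount, which understates the change of low genes, for the 14151 genes with a mean of at least 0.5 FPKM. limma 3.58.1 (R 4.3.3; lmFit and eBayes with trend) compared 3 Med23 CKO with 4 control libraries, with Benjamini-Hochberg adjustment over all genes tested. Intervals are 95% intervals from limma. Exact permutation tests of single genes were two-sided over the 35 ways of dividing 7 libraries into 4 and 3, where the smallest p is 0.0286. The fit was also run on simulated data in which genes varied independently of one another. Genes that vary together between libraries were not covered by that run, so it is no support for the results given here. Each library is 1 mouse. Mouse numbers are not shared between groups and pair no samples.

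The members and lists were chosen with earlier results of these data known. Values in every library are given for Med23, Polr2a, Polr2f, Tbp, any member with an unadjusted p under 0.05 or groups that do not overlap, and in each complex the members with the highest and lowest control mean and the largest difference in each direction. Values of other members were added after they were seen. Promoter sequences are RefSeq's. Alternatives were a pseudocount of 0.1, no filter, a mean of at least 1 FPKM, quantile normalization, median centring, limma without trend, array weights, a covariate from the leading digit of the mouse number, and each library left out in turn.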

Additional observations from a re-analysis of the deposited data

Results flagged for a closer look

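In 3 members a control library stood apart from the other 3 by Dixon's test at its 95% level, which chance does in about 1 in 20 groups; 39 members and Med23 were examined. Taf11 was 29.1 FPKM in WT_213, against 27.2 to 27.5 FPKM in the other controls. Taf15 was 56.4 FPKM in WT_116, against 71.0 to 72.8 FPKM. Gtf2f1 was 36.8 FPKM in WT_215, against 45.7 to 47.4 FPKM.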

How the results depend on the processing

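With 3 mice against 4 and unknown depth, only large or very even differences could pass the test. At an adjusted p under 0.05, 0 members were called under each of the 15 alternatives, and 0 to 1 of all genes with each library left out in turn (1 without KO_214 and 1 without KO_218). At an unadjusted p under 0.05, 1 member (Polr2f) was called with quantile normalization and 5 with array weights (Polr2a, Polr2e, Polr2f, Polr2k and Taf2), a fit that stopped before it converged and in which 193 genes were higher, 887 were lower and Med23 was at -0.43. With no filter, 140 genes were higher. With each library left out in turn, 0 to 1 members, 45 to 354 higher genes and 70 to 410 lower genes were called, the most in both directions without KO_117. Over 1.5 times fewer genes were higher without WT_215 (45), or lower without WT_215 (79), WT_220 (76) or KO_218 (70), and 139 were higher without KO_218. The 1 member was Polr2f, without WT_116. Med23 ran from -0.32 to -0.19, and the members' median log2 fold change ran from -0.15 (without KO_117) to -0.015 (without KO_214). The Pol II median was -0.27 without KO_117, -0.03 without KO_214 and -0.04 without KO_218. Polr2f was lower under every alternative. Of 285 values of the 19 members named by rule, 247 kept direction and side of the threshold, 6 passed an unadjusted p under 0.05 and 32 changed sign. Signs changed for Polr2l with a pseudocount of 0.1 (2.3e-05), quantile normalization (0.012) and median centring (0.026), and with array weights for Gtf2a2 (0.023) and Gtf2e1 (0.13). The other changes of sign came from leaving out 1 library, with ranges of -0.40 to 0.021 for Polr2a, -0.0081 to 0.58 for Polr2k, -0.10 to 0.11 for Polr2l, -0.12 to 0.065 for Tbp, -0.44 to 0.10 for Taf5, -0.041 to 0.21 for Taf7, -0.29 to 0.18 for Taf10, -0.020 to 0.43 for Gtf2a1, -0.049 to 0.12 for Gtf2b, -0.18 to 0.065 for Gtf2e1, -0.10 to 0.33 for Gtf2e2, -0.20 to 0.052 for Gtf2f1, -0.053 to 0.16 for Gtf2f2 and -0.15 to 0.26 for Gtf2h4. The cause was not tested.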

Other observations

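The ratio between the messenger RNAs of Polr2a and Polr2b varied between mice. The level of Polr2a divided by that of Polr2b, its partner in the catalytic cleft, was 1.26, 1.06, 0.925 and 1.31 in control and 1.28, 1.10 and 0.660 in Med23 CKO, lowest in KO_218. It was highest in WT_215, WT_220 and KO_117. The part of measurement noise, or of the overlap of Polr2b with Igfbp7, was not tested.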
